A study of Mus musculus with 6 samples.

Results

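The Notch receptors, the Jagged and Delta-like ligands and the Hes and Hey targets were read in 2 tumor cell populations from the same mouse mammary tumor. The members were 10 of the 24129 gene names in the deposited table, taken by their symbols: the receptors Notch1, Notch2, Notch3 and Notch4, the ligands Jag1, Jag2 and Dll1, and the targets Hes1, Hey1 and Heyl. Another 53 genes of the pathway were listed to describe the machinery around them. Of the 6 members tested 3 passed the test (50%), near the 49.5% of all genes tested, and all 3 were ligands. Jag1 was higher in T1 cells, and Jag2 and Dll1 were higher in T2 cells. In 5 of the alternative fits Dll1 did not pass. The receptors Notch1 and Notch2 differed little between the populations and did not pass the test, though Notch2 was slightly higher in every T2 library. Hes1 differed more between replicates than between populations.

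Both populations were grown from a tumor that 4T1GFP cells had formed in BALB/c mice. 4T1 is a mammary carcinoma line of BALB/c origin that is used as a model of triple negative breast cancer, and 4T1GFP is this line carrying the GFP marker. A culture of cancer associated fibroblasts from that tumor had been overgrown by GFP positive cells, which were then sorted by their GFP signal. T1 cells, called 4T1A in the labels, had low GFP, adhered and looked epithelial, and T2 cells, called 4T1NA, had high GFP, were round and attached loosely. Both were kept in DMEM/F-12 with 10% FBS and antibiotics, without any other agent, and carry the same GFP tag and strain background. Each population was sequenced in 3 replicates. The description of the series calls these independent but does not say that they came from separate tumors. The p-values therefore measure the spread between these samples only, which may be technical. Parental 4T1GFP cells were not analysed here. T1 and T2 differ in GFP signal and attachment at once, and these cannot be told apart in the comparison. Whether they were passaged alike is not stated.

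Notch proteins are receptors on the cell surface that are activated by ligands on a neighboring cell. Binding lets the protease ADAM10 and then the γ-secretase complex cut the receptor, and the freed intracellular domain joins the DNA binding protein RBPJ and a Mastermind coactivator in the nucleus to switch on targets such as Hes1, Hey1, Heyl and Nrarp. In mammary epithelium the pathway takes part in the choice between luminal and basal fates, and a ligand in the same cell as a receptor can also inhibit it.

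The libraries held between 18133227 and 20839686 reads on genes, and 1 read was worth 0.928 to 1.06 normalized counts, which are reads divided by 1 size factor per library. Epithelial markers were abundant in both populations, with a summed level over 5 genes of 64001 to 69949 normalized counts in T1 and 37480 to 43407 in T2, led by Krt18. Epcam and Cdh1, which hold epithelial cells together, were however far lower in T2, at 3141 ± 314 against 34.7 ± 3.49 and at 14748 ± 908 against 465 ± 16.2 normalized counts (SD, n = 3 each). Krt14, a basal keratin of the same list, was at 3795 ± 77.0 in T1 and 3.04 ± 3.70 in T2 (SD, n = 3 each), while Krt8 and Krt18, the luminal keratins, had means of 22067 and 23275 in T1 and 19195 and 21658 in T2. The epithelial label of T1 therefore held for all 5 genes, and T2 had only Krt8 and Krt18 at like levels. Of 8 endothelial genes none reached a mean of 10, their summed level was 4.88 to 19.0 in T1 and 0.979 to 18.4 in T2, Kdr and Emcn had no read in any library, Cdh5 had 1 read in all and Pecam1 had at most 5 reads in a library. The fibroblast markers, 5 genes in all, summed to 20.1 to 40.0 in T1 and 0 to 0.979 in T2, with Col3a1 and Lum at 0 and Col1a1 at 22.4 ± 6.78 against 0.326 ± 0.565 (SD, n = 3 each). Over 5 leukocyte genes the sums were 58.2 to 87.8 and 92.8 to 125, mostly from Cd68, at 72.9 ± 14.8 and 94.6 ± 20.7 (SD, n = 3 each), with Tyrobp at 0 in all libraries and Ptprc at 0 in T1 and 4.61 ± 1.70 in T2 (SD, n = 3). The 4 mural genes summed to 10.7 to 20.5 in T1 and 15.4 to 26.9 in T2.

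The comparison used limma on log2(normalized count + 1) for the 11514 genes whose average over the libraries reached 10 normalized counts, and a gene was called at an adjusted p-value under 0.01. Of the 10 members 6 passed this filter, and 1 of the 6 was higher and 2 were lower in T1. Over all genes tested 25.1% were called higher and 24.4% lower in T1, so that either count is within 1 gene of what the background gives for 6 genes. The median log2 fold change (T1 over T2) was -0.16 over the 6 members and -0.0055 over all genes tested. In 4 of the 6 members the values of the populations did not overlap, which held for 68.1% of all genes tested. With the second rule, which also asked for a log2 fold change beyond 2 in either direction, no member was higher in T1 (background 4.17%) and 1 was lower (background 4.2%). Notch3, Notch4 and Hey1 had too few reads for the filter and Heyl had none.

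**Figure D1:**
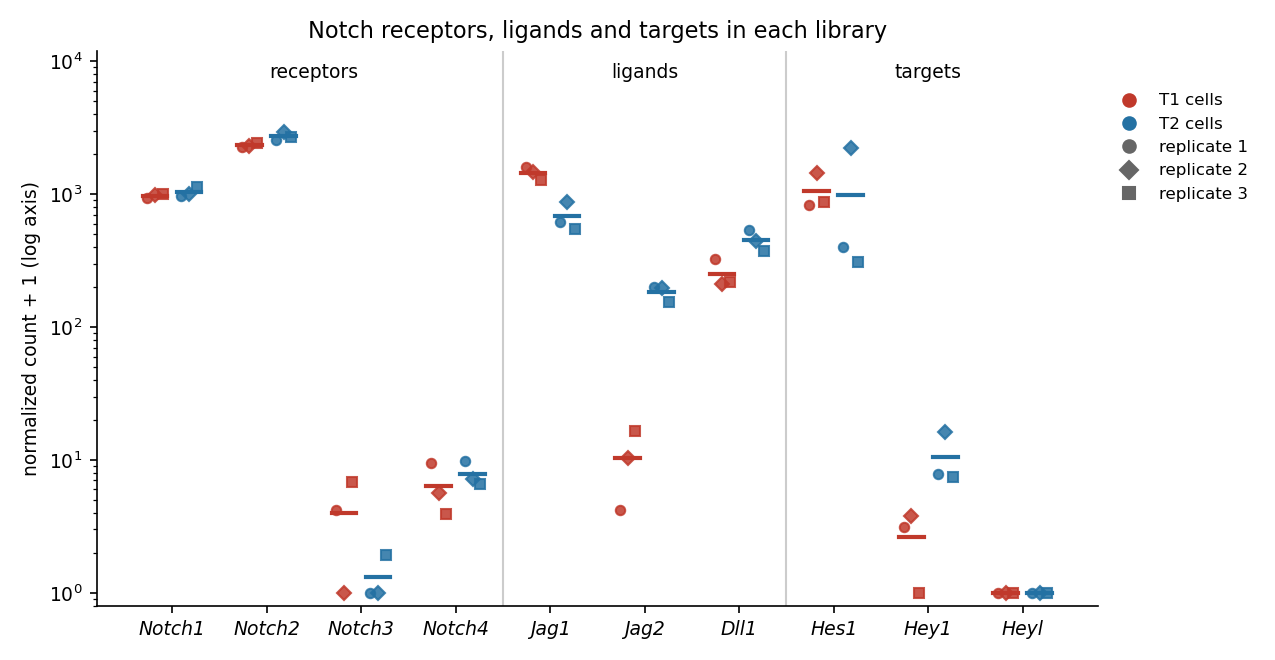
Normalized count + 1 (log axis) of each of the 10 members in each library, so that a gene without reads sits at 1. Red marks are T1 and blue marks T2 libraries, the shape gives the replicate, and the bar is the mean of the 3 libraries. Notch1 and Notch2 lie side by side in both populations, Jag1 is higher in T1, Jag2 and Dll1 are higher in T2, and the replicate 2 diamonds of Hes1 stand above the other libraries of their population.

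The abundant receptors differed little between the populations. Notch1, a receptor broadly used in epithelia, lies on the minus strand of mm10 (chr2:26457903-26516663). It reached 933, 977 and 999 normalized counts in T1 and 974, 999 and 1127 in T2. The libraries overlapped, with T2 replicate 3 the highest of them. Its log2 fold change was -0.09 ± 0.09 (SE), with a 95% interval from -0.29 to 0.11 and an adjusted p-value of 0.417 (limma with Benjamini-Hochberg adjustment). The whole interval is smaller than the change of any ligand. Exons of Notch1 overlap 2 annotated genes of the other strand, 0610009E02Rik and Gm13568. How reads in the overlap were counted is not stated.

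Notch2 (chr3:98013527-98150361, plus strand), the other widely expressed receptor, gave 2267, 2315 and 2409 normalized counts in T1 and 2560, 2937 and 2679 in T2. All T2 libraries were above all T1 libraries, by a small margin. The log2 fold change was -0.22 ± 0.08 (SE) with an adjusted p-value of 0.0295 (limma), which does not reach the threshold, and it lay between -0.27 and -0.16 under every alternative tried. Its exons overlap the annotated gene Gm42820 on the same strand.

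Notch3 and Notch4, receptors best known from vessels, were almost absent. Notch3 (chr17:32120820-32166852, minus strand) had 3, 0 and 6 reads in T1 and 0, 0 and 1 in T2. Notch4 (chr17:34564268-34588503, plus strand) had 8, 5 and 3 reads in T1 and 9, 6 and 6 in T2. Both overlapped between the populations, and a difference in either was not detectable at this depth.

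Levels were set per kilobase of exon, with all annotated exons of a gene merged, so that genes of different length can be compared. The merged length can exceed that of the mRNA, so shares and ranks of different genes are approximate. On this scale the make-up of the receptors was nearly the same in both populations. Notch2 made up 75.7% ± 0.122 of the summed normalized counts per kb of the 4 receptors in T1 and 77.4% ± 1.85 in T2 (SD, n = 3 each; exact two-sided permutation test, p = 0.3, 0.533 after adjustment over the 4 receptors). The share of Notch1 was 23.9% ± 0.276 in T1 and 22.3% ± 1.84 in T2 (SD, n = 3 each; exact permutation p = 0.3, adjusted 0.533). Notch3 held 0.129% and 0.0116%, and Notch4 0.235% and 0.263%. With 3 libraries against 3 this test cannot give a p-value below 0.1. The summed level of the 4 receptors was 285 ± 8.78 normalized counts per kb in T1 and 326 ± 18.3 in T2 (SD, n = 3 each), with all T2 libraries above all T1 libraries (exact permutation p = 0.1, the smallest possible).

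The ligands changed in opposite directions. Jag1 (chr2:137081456-137116644, minus strand), a Jagged ligand that signals to Notch on neighboring cells, had 1601, 1470 and 1285 normalized counts in T1 and 620, 868 and 548 in T2. The lowest T1 library stood above the highest T2 library. The means were 1452 ± 159 and 679 ± 168 (SD, n = 3 each), a ratio of 2.14, and the log2 fold change was 1.12 ± 0.16 (SE) with an adjusted p-value of 0.000146 (limma). It stayed called under every alternative that tested against no change, with log2 fold changes from 0.98 to 1.31.

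Jag2 (chr12:112907819-112929776, minus strand), the second Jagged ligand, went the other way and by much more. It had 3.17, 9.30 and 15.6 normalized counts in T1, from 3, 10 and 16 reads, and 198, 195 and 152 in T2. The populations were far apart, and the T1 libraries differed among themselves at a level of few reads. The means were 9.36 ± 6.22 and 182 ± 25.4 (SD, n = 3 each), so Jag2 was 19.4 times higher in T2. Its log2 fold change was -4.34 ± 0.43 (SE) with an adjusted p-value of 1.23e-05 (limma), past both call rules. Jag2 passed the filter on low values only through its T2 libraries. The fold change ranged from -4.79, without T1 replicate 3, to -3.79, without T1 replicate 1 or with a pseudocount of 5, and was called in each setting.

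Dll1 (chr17:15367354-15376872, minus strand), a Delta-like ligand, had 324, 211 and 216 normalized counts in T1 and 535, 442 and 375 in T2. T1 replicate 1 came nearest to T2, but no libraries overlapped. Dll1 was 1.80 times higher in T2, at 250 ± 63.8 against 451 ± 80.2 normalized counts (SD, n = 3 each). The log2 fold change was -0.86 ± 0.19 (SE) with an adjusted p-value of 0.00267 (limma). This call was lost without T1 replicate 2 (adjusted p-value 0.0125), without T2 replicate 1 (0.0171) or without T2 replicate 2 (0.0101), each by limma, while the fold change stayed between -1.06 and -0.73 over all alternatives. Exons of Dll1 overlap A930024N18Rik on the other strand, and how reads in the overlap were counted is not stated.

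The make-up of the 3 ligands moved accordingly. Jag1 accounted for 80.6% ± 2.51 of their summed normalized counts per kb in T1 and 46.5% ± 6.12 in T2, and Dll1 for 19.0% ± 2.68 and 43.0% ± 5.64 (SD, n = 3 each). The share of Jag2 was 0.463% ± 0.345 in T1 and 10.5% ± 0.501 in T2 (SD, n = 3 each). For each ligand the populations did not overlap (exact two-sided permutation p = 0.1 and adjusted p = 0.1, the smallest possible). The summed level of the 3 ligands overlapped between the populations, at 310 ± 39.4 normalized counts per kb in T1 and 249 ± 39.9 in T2 (SD, n = 3 each; exact permutation p = 0.2).

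Dll4, which is not a member but one of the other ligands listed, changed about as much as Jag2. Dll4 is known as the Delta-like ligand of sprouting vessels. It lies on the plus strand (chr2:119325784-119335962) and had 47.6, 37.2 and 32.2 normalized counts in T1 and 956, 1372 and 844 in T2. Every T2 library was far above every T1 library. The mean was 27.1 times higher in T2, at 1057 ± 278 against 39.0 ± 7.86 (SD, n = 3 each), with a log2 fold change of -4.71 ± 0.21 (SE) and an adjusted p-value of 4.59e-08 (limma), past both call rules. The annotated gene Gm14207 on the other strand overlaps it. The endothelial markers given above were at or near 0 in both populations. With Dll4 added to the ligands, a choice made after its values were seen, Dll4 held 52.1% ± 3.59 of the ligand total per kb in T2 and 3.15% ± 0.223 in T1, and Jag1 22.1% ± 1.24 and 78.0% ± 2.56 (SD, n = 3 each). The share of Dll1 then overlapped between the populations, at 18.4% ± 2.56 in T1 and 20.8% ± 4.22 in T2 (SD, n = 3 each; exact permutation p = 0.5, also after adjustment over the 4 ligands). The ligand total with Dll4 was 320 ± 41.4 normalized counts per kb in T1 and 524 ± 108 in T2, with T2 above (SD, n = 3 each; exact permutation p = 0.1), whereas without Dll4 it overlapped.

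**Figure D2:**
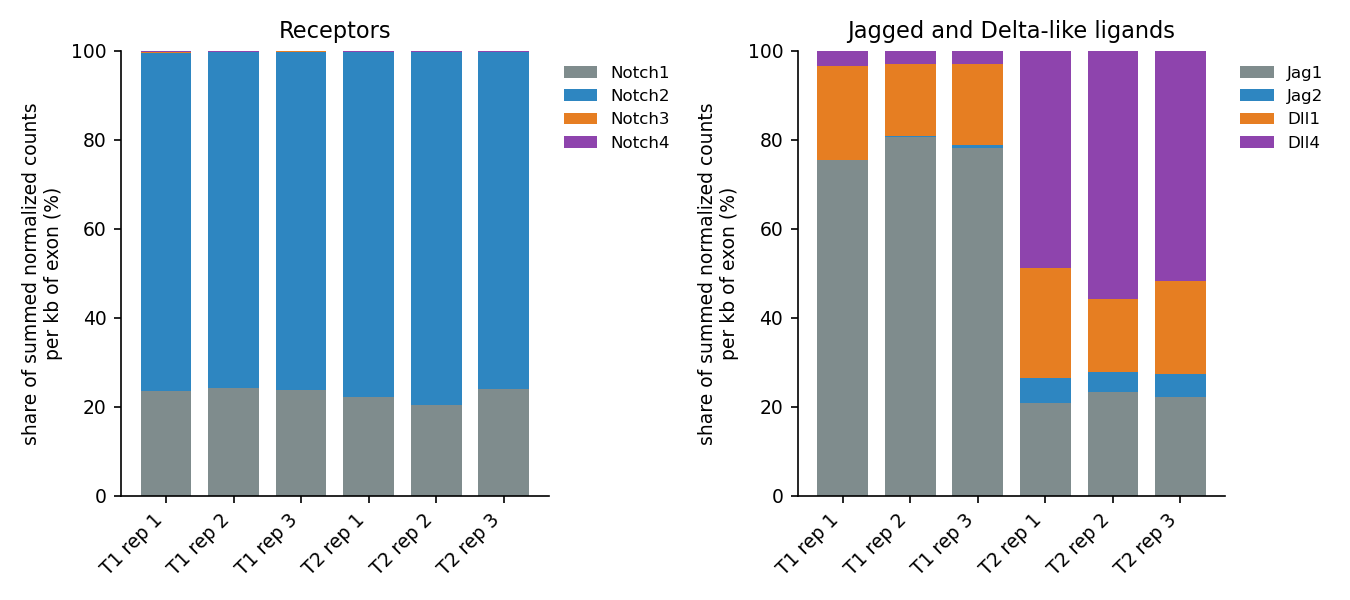
Share (%) of each receptor (left) and of the ligands Jag1, Jag2, Dll1 and Dll4 (right) in their summed normalized counts per kb of exon, 1 bar per library, 3 of T1 and 3 of T2. Notch2 holds about the same share of the receptors in all 6 libraries, while Jag1 leads the ligands of T1 (mean 78.0%) and Dll4 those of T2 (mean 52.1%).

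The promoters of Jag1, Jag2 and Dll4 are shown side by side, chosen after the levels were seen. Those of Dll1 and of the noncanonical ligand Dlk2, which also moved apart, are not shown. Each sequence runs 5′ to 3′ on the gene's strand from 250 bases before to 50 bases after the annotated start, taken from RefSeq on GRCm38.p6, the assembly behind mm10. Promoters were found for 7 of the 10 members, all but Hes1, Hey1 and Heyl, and for 41 of the 53 other pathway genes. Capitals would mark the letters TGGGAA or TTCCCA, the core of the RBPJ motif on either strand, or CACGTG, an E-box that reads the same on both strands and that Hes and Hey proteins and others can bind.
Jag1, chr2:137116471-137116770, minus strand: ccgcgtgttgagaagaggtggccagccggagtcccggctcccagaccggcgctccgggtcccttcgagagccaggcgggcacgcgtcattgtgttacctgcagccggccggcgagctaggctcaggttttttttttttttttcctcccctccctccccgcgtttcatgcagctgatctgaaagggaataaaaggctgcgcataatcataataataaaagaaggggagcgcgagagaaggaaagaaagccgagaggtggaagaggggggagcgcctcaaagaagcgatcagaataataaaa
Jag2, chr12:112929446-112929745, minus strand: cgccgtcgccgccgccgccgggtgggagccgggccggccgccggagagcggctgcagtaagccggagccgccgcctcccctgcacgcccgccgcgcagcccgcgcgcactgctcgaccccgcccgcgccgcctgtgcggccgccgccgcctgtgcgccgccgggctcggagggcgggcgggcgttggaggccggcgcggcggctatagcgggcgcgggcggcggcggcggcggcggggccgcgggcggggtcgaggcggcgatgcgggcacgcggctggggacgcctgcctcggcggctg
Dll4, chr2:119325534-119325833, plus strand: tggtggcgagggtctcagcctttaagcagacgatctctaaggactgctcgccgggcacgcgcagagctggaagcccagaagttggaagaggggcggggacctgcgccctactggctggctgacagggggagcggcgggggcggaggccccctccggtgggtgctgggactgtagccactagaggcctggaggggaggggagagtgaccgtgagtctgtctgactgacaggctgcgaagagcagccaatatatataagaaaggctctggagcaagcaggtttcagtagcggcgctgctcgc
The Jag2 promoter has 86.0% G and C and 63 CpG, above the 95th percentile of all promoters, which is 37 CpG. This is not particular to Jag2. Notch2, which was not called, has 41 CpG, and other pathway genes above that percentile were called (Pofut1, 45 CpG) or not called (Spen, 54 CpG). Jag1 has 55.7% and 22 CpG and Dll4 has 63.7% and 17 CpG, against a median of 52.7% and 7 CpG over the 32851 promoters searched. Neither motif occurs in these windows or in any of the members' promoters found. TGGGAA or TTCCCA is present in 25.6% and CACGTG in 7.15% of all promoters, and among the other pathway genes in 13 and 5 of 41. A gene was counted if any of its promoters matched. Some genes have several promoters, so the counts of genes and the percentages of promoters are not on the same scale.

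The targets gave no common direction. Hes1 (chr16:30064384-30067796, plus strand), a repressor that is the classical Notch target, had 821, 1442 and 876 normalized counts in T1 and 399, 2225 and 306 in T2. Replicate 2 was the highest library of both populations, and T2 held both the highest and the lowest values. The means, 1046 ± 343 and 977 ± 1082 (SD, n = 3 each), differed by less than the spread between replicates. The log2 fold change was 0.64 ± 0.59 (SE) with an adjusted p-value of 0.366 (limma), and 0.10 on the scale of edgeR (adjusted p-value 0.897) and of DESeq2 (0.933).

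Hes1 turned on 1 library. Replicate 2 was 1.70 times the mean of the other replicates in T1 and 6.31 times in T2. Over replicates 1 and 3 alone Hes1 was 849 in T1 and 352 in T2, a ratio of 2.41. Without T2 replicate 2 the log2 fold change was 1.53 and Hes1 was called higher in T1 (adjusted p-value 0.000559, limma), and without replicate 2 of both populations it was 1.28 (adjusted p-value 0.000255, limma). Leaving out any other library gave 0.10 to 0.79 and no call.

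Other genes were high in the same libraries. In 30 of the 11514 genes tested (0.261%) replicate 2 exceeded both other replicates by more than 1.5 times in both populations, against 5 genes (0.0434%) for replicate 1 and 25 (0.217%) for replicate 3. Hes1 is among the 30, and 3 of the others are given with their values. Atf3, a stress induced transcription factor, had 578, 2228 and 684 normalized counts in T1 and 195, 2897 and 267 in T2. Fosb, a subunit of AP-1, had 1009, 4503 and 1250 in T1 and 3149, 9908 and 3685 in T2. Id1, an inhibitor of basic helix-loop-helix factors, had 484, 2203 and 478 in T1 and 5689, 11914 and 5090 in T2. That replicate 2 was their highest library follows from how the 30 were chosen, and lends nothing to Hes1. The choice among them was made with their values in view, and their part in the Hes1 values was not tested.

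**Figure D3:**
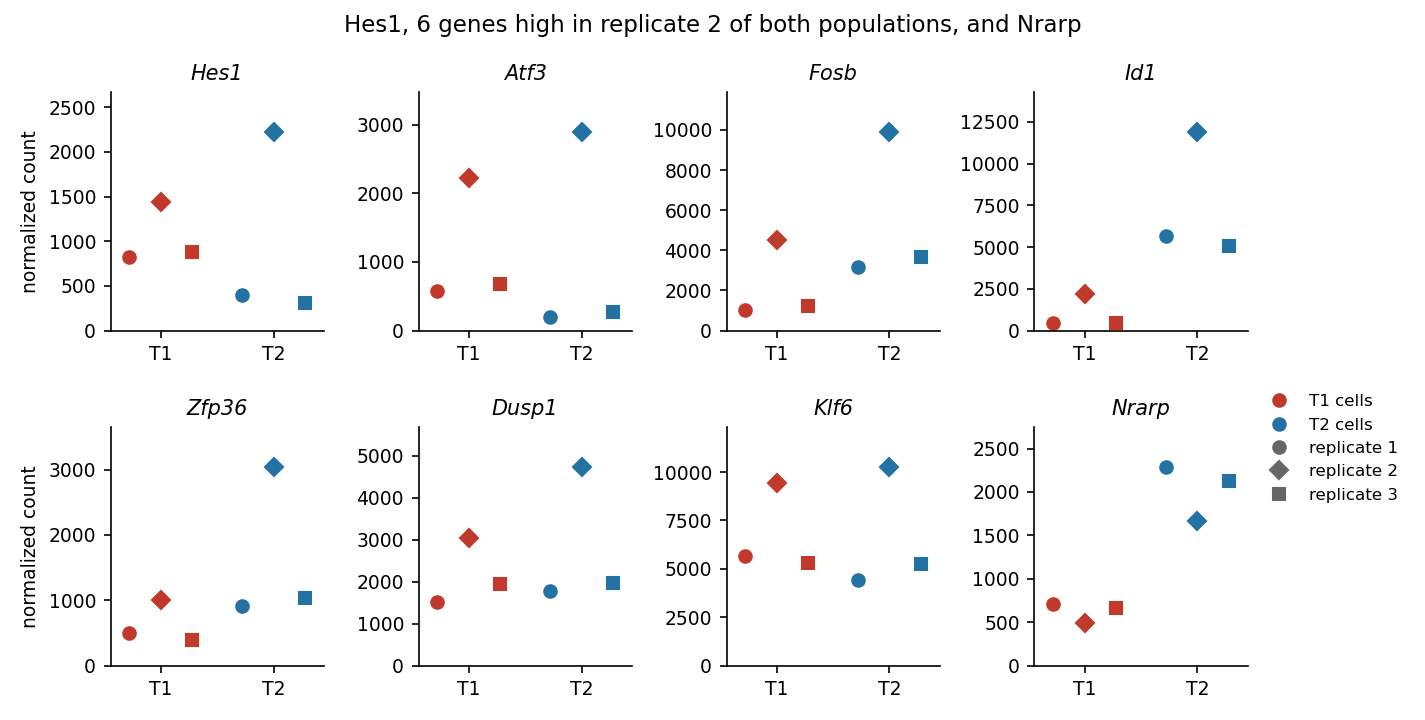
Normalized counts (linear axes from 0) of Hes1, of Atf3, Fosb, Id1, Zfp36, Dusp1 and Klf6, and of Nrarp, with 1 mark per library, T1 in red and T2 in blue, and the shape giving the replicate. The 6 genes after Hes1 were chosen because replicate 2, the diamond, is their highest mark in both populations, as it is in Hes1, and it is the lowest in Nrarp.

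Hey1 (chr3:8663359-8667256, minus strand), a related repressor, was low in both populations. Its libraries held 2, 3 and 0 reads in T1 and 7, 15 and 7 in T2. All T2 libraries were above all T1 libraries, and the highest was again replicate 2. Over the group, 29 reads in T2 against 5 in T1 gave a depth-corrected ratio of 5.74, with an exact 95% interval of 2.20 to 19.0 that covers counting error only. Hey1 did not pass the filter on low values. With no filter its log2 fold change was -2.12 ± 0.57 (SE) with an adjusted p-value of 0.00944 (limma). Heyl (chr4:123233556-123249875, plus strand), the remaining Hey repressor, had no read in any of the 6 libraries. Taken alone, a library without a read allows up to 3 reads at this depth, and the 6 together allow fewer per library.

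The members can be put in order by level. Per kb of exon, T1 had Hes1 first at 514 ± 169 normalized counts, then Jag1 at 249 ± 27.2, Notch2 at 216 ± 6.67, Notch1 at 68.2 ± 2.37 and Dll1 at 59.3 ± 15.1 (SD, n = 3). Within 1 SD, Jag1 could not be ranked against Notch2, nor Notch1 against Dll1. Jag2 followed at 1.34 ± 0.893, with Notch4, Hey1 and Notch3 at 0.663 ± 0.352, 0.501 ± 0.446 and 0.372 ± 0.362, and none of these neighbors differed beyond its SD. In T2 the order was Hes1 at 479 ± 531, Notch2 at 253 ± 17.9, Jag1 at 116 ± 28.8, Dll1 at 107 ± 19.0 and Notch1 at 72.6 ± 5.77 (SD, n = 3). The first place of Hes1 in T2 rests on replicate 2. Without that replicate it was at 173 per kb in T2, below Notch2, and at 417 in T1, still first. By its SD in T2 alone Hes1 could not be ranked against Notch2, Jag1, Dll1, Notch1 or Jag2. In each T2 library, however, Hes1 was above Jag1, Dll1, Notch1 and Jag2 per kb. Only its order against Notch2 turned on replicate 2. Jag1 and Dll1 lay within their SD of each other. Jag2 was sixth again, at 26.1 ± 3.65, before Hey1 at 2.93 ± 1.54, Notch4 at 0.849 ± 0.215 and Notch3 at 0.0382 ± 0.0662. In bulk RNA, fewer cells that express a gene and less RNA per cell cannot be told apart, in these levels and in all comparisons given here.

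Among the 53 other genes of the pathway 45 passed the filter. Of these, 5 were higher in T1 (11.1%, background 25.1%), 15 were lower (33.3%, background 24.4%) and 25 did not pass the test. Their median log2 fold change was -0.14 and the median of its absolute size 0.34, against -0.0055 and 0.45 over all genes tested. In 27 of the 45 the populations did not overlap, a smaller share than the background of 68.1%. Past both rules were 1 gene higher (Dtx4) and 2 lower (Dll4 and Maml3) in T1. Dlk1, Dtx1 and Hes5 had no read in any library.

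Of the other ligands, Dlk2, a noncanonical ligand, also fell in T1, from 1450 ± 170 normalized counts in T2 to 663 ± 84.1 (SD, n = 3 each), with a log2 fold change of -1.13 (adjusted p-value 1.92e-05, limma). Of 4 genes for ligand endocytosis, which ligands need in order to signal, Neurl1b was lower in T1 (log2 fold change -1.57, adjusted p-value 1.56e-05, limma), Neurl1a was higher (1.10, adjusted p-value 0.000152, limma), and Mib1 and Mib2 were not called. Mib2 was 651 normalized counts in T1 replicate 3 and 215 and 225 in the other T1 libraries, and its log2 fold change turned from 0.29 to -0.23 without that library. Of 6 genes that glycosylate the receptors, Pofut1, which adds the O-fucose that ligand binding needs, was lower in T1 (log2 fold change -0.66, adjusted p-value 6.95e-05, limma). Xxylt1 was called lower by a small margin (log2 fold change -0.34) and lost this call when any library was left out and in 9 alternatives in all, with adjusted p-values up to 0.0924 (limma). The fringe enzyme Rfng had a log2 fold change of 0.12 (adjusted p-value 0.33, limma) and 3 more were not called.

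Of 9 genes for receptor cleavage, 2 were lower in T1 and 7 were not called. Adam10, which makes the first ligand-dependent cut, had 2388 ± 141 normalized counts in T1 and 4343 ± 308 in T2 (SD, n = 3 each), with a log2 fold change of -0.86 (adjusted p-value 8.29e-06, limma). Aph1a, a subunit of γ-secretase, had a log2 fold change of -0.51 (adjusted p-value 0.0024, limma).

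In the nuclear activation complex 3 of 6 genes were lower and 1 was higher in T1. Maml3, a Mastermind coactivator, had 233, 281 and 259 normalized counts in T1 and 1073, 1249 and 978 in T2. Its T2 libraries were all above those of T1, and the log2 fold change was -2.09 ± 0.12 (SE) with an adjusted p-value of 3.28e-07 (limma). It lies so close to the second rule that it fell inside a log2 fold change of 2 without T2 replicate 2 (-1.99). Maml1, another Mastermind gene, fell by 0.84 and Rbpj itself by 0.60 on the log2 scale in T1 (adjusted p-values 1.16e-05 and 0.000226, limma), while Snw1, a cofactor of the complex, was higher (0.45, adjusted p-value 0.000693, limma). Of 6 genes on the repressing side L3mbtl3, which binds RBPJ, was lower in T1 (-1.22, adjusted p-value 1.35e-05, limma), as was Kdm5a, and Ctbp1 was not called (-0.07, adjusted p-value 0.506, limma).

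Of 8 genes for turnover and trafficking, Dtx4 and Dtx3l were higher in T1 and 6 were not called. The call of Dtx3l was lost in 6 of the alternatives, with adjusted p-values up to 0.063 (limma). Dtx4, a Deltex ubiquitin ligase, had 640, 699 and 768 normalized counts in T1 and 138, 144 and 109 in T2. The ratio of the means was 5.39, and the log2 fold change was 2.43 ± 0.15 (SE) with an adjusted p-value of 3.41e-07 (limma). Dtx3 had a log2 fold change of -0.14 and was not called (adjusted p-value 0.338, limma).

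Other targets of the pathway did not move together. Nrarp, a Notch target that feeds back on the receptor's intracellular domain, had 706, 496 and 659 normalized counts in T1 and 2289, 1669 and 2122 in T2. All T2 libraries were above all T1 libraries, and in contrast to Hes1 replicate 2 was the lowest of both. It was 3.27 times higher in T2, with a log2 fold change of -1.71 ± 0.15 (SE) and an adjusted p-value of 5.33e-06 (limma). The annotated gene Gm38287 of the other strand overlaps it. Ccnd1, the cyclin of the G1 phase, was also lower in T1, at 21577 ± 76.0 against 53906 ± 2093 normalized counts (SD, n = 3 each; log2 fold change -1.32, adjusted p-value 1.47e-07, limma). Myc, a growth-promoting factor with many other regulators besides Notch, was higher in T1, at 7445 ± 1336 against 3063 ± 329 (SD, n = 3 each; log2 fold change 1.27, adjusted p-value 1.62e-05, limma). Hes6 was not called (log2 fold change 0.29, adjusted p-value 0.237, limma), and Hes7 and Hey2 were below the filter.

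**Figure D4:**
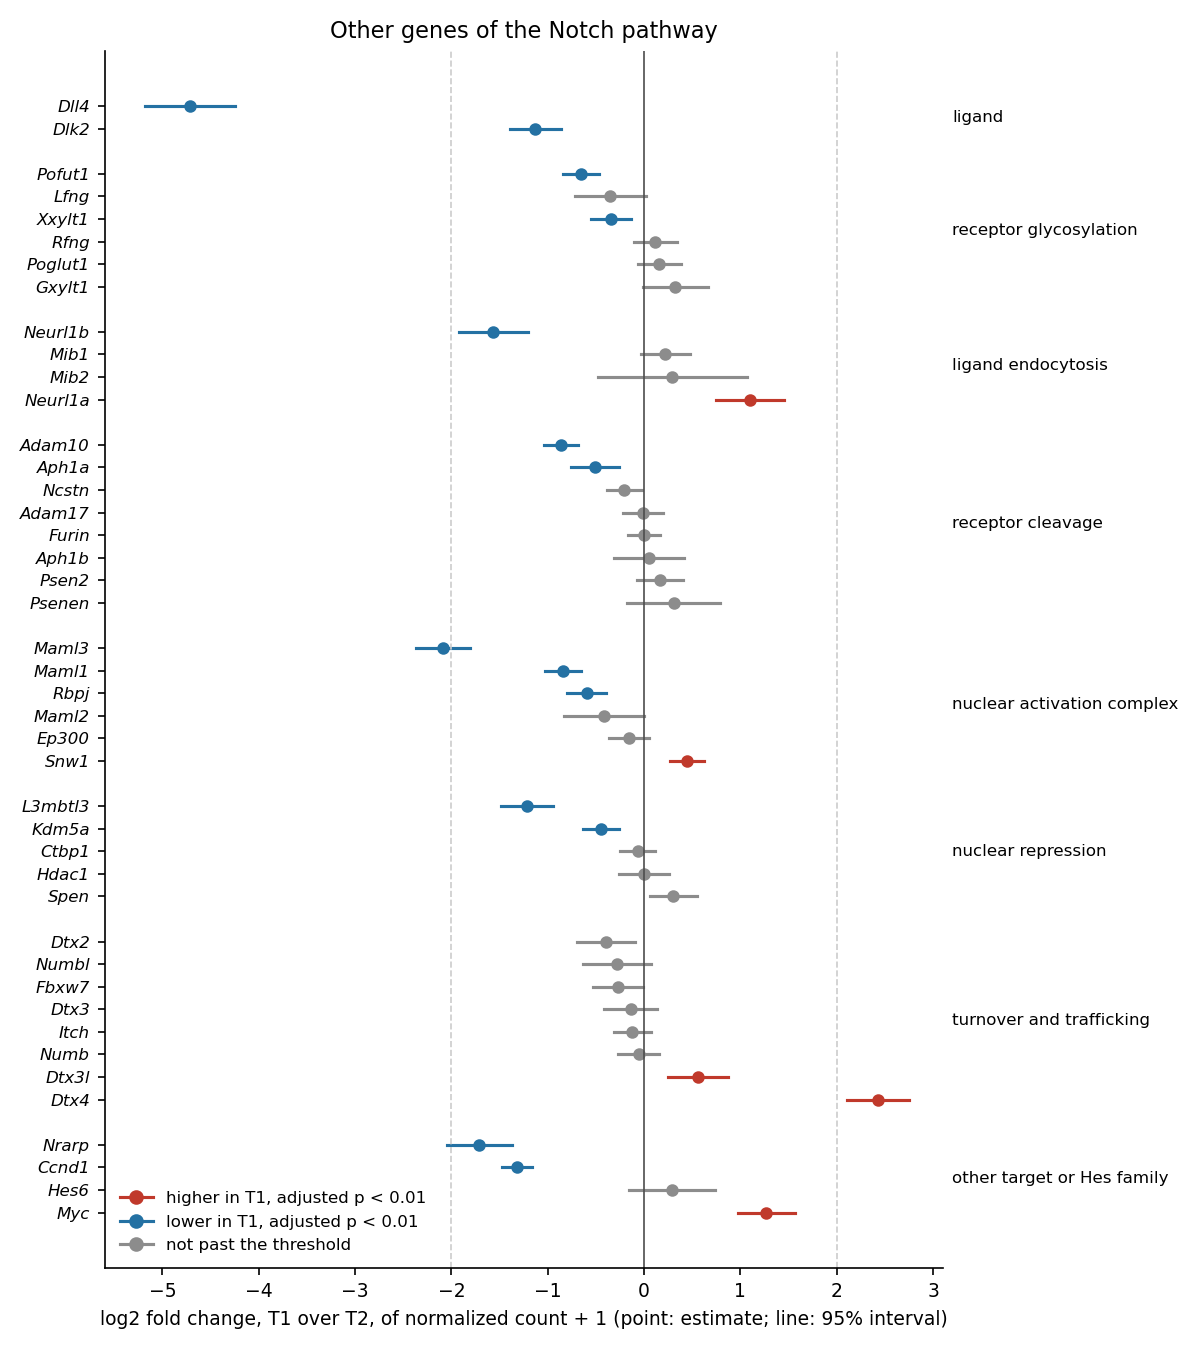
Log2 fold change (T1 over T2, of normalized count + 1) of 43 of the 45 other pathway genes tested, by role, with its 95% interval as a line. Red genes were higher and blue genes lower in T1 at an adjusted p-value under 0.01, gray genes did not pass, and the dashed lines are at 2 and -2. Dll4 and Maml3 lie beyond -2 and Dtx4 beyond 2, and most genes of cleavage and turnover lie near 0.

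The promoters of Nrarp and Maml3 are shown as examples, picked with their values known, of windows that hold a motif, CACGTG in Nrarp and TTCCCA in Maml3, in capitals. Of the other pathway genes with a promoter, either motif was found in 5 of 12 called lower in T1, in 0 of 2 called higher, in 7 of 20 not called and in 3 of 7 below the filter. Again a gene was counted if any of its promoters matched. The share of all promoters with either motif was not computed.
Nrarp, chr2:25180508-25180807, plus strand: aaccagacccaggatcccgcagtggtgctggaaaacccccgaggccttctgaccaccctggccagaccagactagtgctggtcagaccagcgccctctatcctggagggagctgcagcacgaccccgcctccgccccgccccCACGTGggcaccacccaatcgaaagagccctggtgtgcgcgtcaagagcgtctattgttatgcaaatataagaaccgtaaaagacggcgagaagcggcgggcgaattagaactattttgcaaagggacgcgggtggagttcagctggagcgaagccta
Maml3, chr3:52104957-52105256, minus strand: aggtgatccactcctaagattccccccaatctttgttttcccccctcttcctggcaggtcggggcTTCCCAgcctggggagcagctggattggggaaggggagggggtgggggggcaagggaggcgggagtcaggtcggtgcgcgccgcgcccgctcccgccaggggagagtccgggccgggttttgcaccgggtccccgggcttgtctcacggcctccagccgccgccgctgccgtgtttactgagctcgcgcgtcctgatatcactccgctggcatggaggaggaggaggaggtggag
The TTCCCA of Maml3 begins 185 bases before the annotated start. With TGGGAA or TTCCCA in 25.6% of all promoters, such a match is a description and no site of binding.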

How the data were processed

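Poly(A) RNA of 3 T1 and 3 T2 samples was sequenced from libraries of a modified TruSeq V2 protocol. The unmodified protocol does not mark strand, and whether the modified one does is not stated. The deposited values are normalized counts (a signal): the authors used Trimmomatic for adapters, TopHat2 for alignment to mm10, HTSeq for counting and the size factors of DESeq2 for scaling. Versions, the annotation and the strand setting of the counting are not given in the sources used here, and no column was left out (0 unused). All values (100%, within 0.01 of a read) were whole reads once divided by what 1 read is worth in their sample.

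Samples were grouped by their titles. Genes averaging 10 or more normalized counts across all 6 samples entered limma 3.58.1 (trend with the mean) in R 4.3.3 on log2(normalized count + 1), a scale on which changes of lowly expressed genes come out too small. Benjamini-Hochberg adjustment ran over the 11514 genes tested, and the thresholds were an adjusted p-value of 0.01 and, in the second rule, also a log2 fold change of 2. The design had named this test for normalized values. As alternatives, edgeR 4.0.16 and DESeq2 1.42.0 were run on the recovered reads (edgeR called 974 genes past both rules), and the pseudocount, filter, normalization, variance model, replicate block and left-out replicates were varied. Leaving out replicate 2 of both populations was added after the data were seen. Shares were compared with exact two-sided permutation tests, and intervals on reads cover counting error only. The tests were checked on simulated data with large changes and both rules only, which does not bear on the smaller changes called here.

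The members and lists were chosen with earlier results of these data known. Named were every member and, of the 53 other pathway genes, those past both rules and, within each role, the gene with the smallest adjusted p-value and the one with the highest level per kb. Of the marker lists the ranges and Epcam, Cdh1, Pecam1, Cdh5, Kdr, Col1a1 and Ptprc were named. Results of 2 pathway genes are counted but not reported here by name. The other genes named were chosen after their values were seen. Positions and exon lengths, which merge the exons of all transcripts of a gene, came from the GENCODE annotation of mm10 and promoters from RefSeq. Motifs were searched on both strands. Plots were made in Python 3.11.15 with matplotlib 3.10.9.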

Additional observations from a re-analysis of the deposited data

How the results depend on the processing

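Jag1 and Jag2 kept their direction and call, and Notch1 and Notch2 stayed without a call, under each alternative but 1. The exception was Jag1 under limma's treat, described below, which called 0 members higher in T1. Dll1 kept its direction, but its call was lost with limma without the trend (adjusted p-value 0.0118) and without replicate 2 of both populations (0.0271), besides the libraries named in the report, so that 1 member was lower in T1 in these settings. With no filter on low values 2 members were lower past both rules, as Hey1 entered. Without replicate 2 of both populations, 2 members were higher (Hes1 entered) and 1 was lower. With limma's treat, which tests against a log2 fold change of 2, 0 pathway genes were higher and 1 was lower, since this is a stricter hypothesis, and 457 genes in all passed against 964. Leaving out each library in turn gave 1 to 2 members higher, 1 to 2 members lower and 1 to 2 pathway genes lower past both rules. The difference in the Notch4 share (T1 minus T2), -0.0278 percentage points, ranged from -0.0996 to 0.0281 and turned without T1 replicate 3 (0.0281) and without T2 replicate 1 (0.0189), at levels of at most 9 reads a library. The call of Xxylt1 was lost in 9 settings and that of Dtx3l in 6, with Aph1a lost in 2 and Kdm5a and Snw1 in 1 each, and Spen was called in 2. With the replicate number as a block the counts of members called stayed at 1 higher and 2 lower, the adjusted p-value of Hes1 was 0.0924 (limma), and Xxylt1 lost its call (0.0157). Same-numbered samples deviated together with correlations of 0.057, 0.172 and 0.104. T2 replicate 1 correlated better with T1 replicate 3 (0.072), and every other sample correlated best with its own number. The numbers were not taken to pair the samples in the main test, and the fit with the block is given above. The few reads of Notch3, Notch4, Hey1 and Heyl limit what can be said of them.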
